A study of Mus musculus with 6 samples.

Results

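The genes of the elastic fibre and of the lysyl oxidases were examined in mouse glioma cells treated with SHP099, an allosteric inhibitor of the tyrosine phosphatase SHP-2. They were chosen by symbol, 10 genes of the 53346 in the files: Eln, Fbn1, Fbn2, Mfap5, Fbln5, Efemp2, Lox, Loxl1, Loxl2 and Loxl3. Each of the 10 symbols had a single entry. A gene was compared between doses when its mean reached 1 FPKM in at least 1 dose, which 12567 genes did. Of the 10 genes, 8 did, and each of these 8 was at 1 FPKM or more in every dose. Eln and Fbn2 did not reach that level in any dose.

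An elastic fibre is a core of crosslinked elastin laid down on a scaffold of microfibrils, which are polymers of fibrillin carrying smaller glycoproteins. Fibulins bring the soluble elastin precursor and the crosslinking enzymes to that scaffold. Lysyl oxidases are secreted copper enzymes that oxidise lysine side chains of elastin and of fibrillar collagens, and the resulting aldehydes form the crosslinks. In the brain elastic fibres are mainly found in vessel walls and meninges, and lysyl oxidases are best known in tumours for stiffening the collagen matrix.

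The labels call the cells astrocytes and glioma cells of a tumour and name Ink4a/Arf-/-, PDGFRa and PDGF-A in every sample, so all doses share this background, which lacks the tumour suppressors of the Ink4a/Arf locus. They received 0, 5 or 10 µM SHP099. The labels give neither the time of treatment, nor the vehicle, nor the number of clones, nor how PDGFRa and PDGF-A were altered or driven. Polyadenylated RNA of each dose was read as 1 library in lanes 6 and 7, so there are 6 files and 3 libraries, and n = 1 per dose. The 2 lanes of a library show sequencing error and nothing of the variation between cultures, and the doses are compared without p-values.

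Levels are in FPKM, which divides a gene's fragments by the length of its transcript and by the fragments of the file, so levels of different genes can be set side by side per length. Fragments per lane recovered from the steps between low values lay between 30740000 and 47580000. A transcript of 2 kb at 1 FPKM then has 61.5 to 95.2 fragments in a lane, a counting error of 10.3% to 12.8%. A fold is the difference of lane means on the scale log2(FPKM + 1), followed by its lowest and highest value over the 4 pairs of lanes. A gene is called higher or lower when the fold reaches 1.5 and all 4 pairs have the same sign. The median lane difference within a library was 0.05 to 0.06 on this scale for all compared genes, and by 0.02 to 0.04 for the 8 genes.

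Elastin transcripts were scarce, at most 0.165 FPKM in any lane, while Efemp2, Fbln5, Lox and Fbn1, which assemble and crosslink its fibre, were abundant. Eln, the gene for the elastin precursor (ENSMUSG00000029675), was listed at 0 and 0.0089 FPKM in the untreated lanes, 0.122 and 0.165 FPKM in the 5 µM lanes and 0.0411 and 0.0411 FPKM in the 10 µM lanes. For the longest annotated transcript this corresponds to about 0 and 2 fragments in the untreated lanes, 17 and 23 in the 5 µM lanes and 5 and 5 in the 10 µM lanes. Both 5 µM lanes lay above both lanes of each other dose, at a level where the counting error of a lane is 20.9% or more. The level corresponding to 3 fragments of Eln was between 0.0175 and 0.0270 FPKM in the 6 files, so the 0 µM library was below it. Against a library below that level no fold is given.

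Nearly all fibrillin transcripts were of Fbn1, and these fell at 10 µM. Fbn1 (ENSMUSG00000027204), which encodes fibrillin-1, the main fibrillin of adult microfibrils, was at 81.6 and 80.9 FPKM at 0 µM, 65.1 and 64.1 FPKM at 5 µM and 52.0 and 51.7 FPKM at 10 µM. The lanes of the 3 doses did not overlap, and the level was lower at each higher dose. The log2 fold at 10 against 0 µM was -0.64 (-0.65 to -0.63), a lower call. At 5 against 0 µM it was -0.33 (-0.34 to -0.31) and at 10 against 5 µM -0.31 (-0.33 to -0.30), neither of which reached 1.5-fold. When every file was brought to 1 common sum of FPKM without Snora62, a small RNA gene of extreme level in 1 lane at 5 µM, the fold at 10 against 0 µM was -0.42 and was not called. With scaling by a trimmed mean it was -0.60, and with the median fold of all compared genes set to 0 it was -0.61. In both of these settings Fbn1 was still called lower. Fbn2, which encodes the fibrillin prominent in development (ENSMUSG00000024598), lay between 0.0095 and 0.0377 FPKM in the 6 files, about 3 to 19 fragments. Lane 6 was below lane 7 at each dose and the doses overlapped, and Fbn2 made up 0.029% to 0.046% of the summed FPKM of both fibrillins.

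Mfap5 had the largest fold of the 8 genes with the pseudocount of 1 FPKM. It encodes a microfibril-associated glycoprotein, MAGP-2, that binds fibrillin (ENSMUSG00000030116), and had 1.42 and 0.99 FPKM at 0 µM, 6.82 and 8.62 FPKM at 5 µM and 6.99 and 6.94 FPKM at 10 µM. All treated lanes lay above both untreated lanes, whereas the 10 µM lanes fell within the range of the 5 µM lanes. Mfap5 rose by 1.86 (1.71 to 2.01) at 10 against 0 µM, a ratio of mean FPKM of 5.78, and by 1.98 (1.69 to 2.27) at 5 against 0 µM. At this low level the fold depends on the pseudocount: at 10 against 0 µM it was 2.46 with 0.1 FPKM and 0.95 with 5 FPKM, where Fbln5 had 0.99. Of the compared genes, 1.01% had a larger fold at 10 µM and 0.66% at 5 µM. The level was low for this group, at 106 to 742 fragments per lane with the longest transcript, and Mfap5 still stood below 66.9% of compared genes at 10 µM, against 91.7% at 0 µM.

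Fbln5 and Efemp2, fibulin genes of elastic fibre assembly, rose at both doses, while 3 further fibulin genes did not rise. Fbln5 (ENSMUSG00000021186) encodes fibulin-5, an integrin-binding protein that tethers the elastin precursor and Loxl1 to microfibrils. It had 97.4 and 99.2 FPKM at 0 µM, 194.5 and 194.9 FPKM at 5 µM and 200.5 and 199.2 FPKM at 10 µM. Efemp2 (ENSMUSG00000024909) encodes fibulin-4, which binds Lox and the elastin precursor, and had 153.5 and 152.0 FPKM at 0 µM, 261.6 and 269.0 FPKM at 5 µM and 246.8 and 255.2 FPKM at 10 µM. In each, treated and untreated lanes were far apart, and the doses of 5 and 10 µM were close. Fbln5 rose by 1.02 (1.00 to 1.03) at 10 against 0 µM, a ratio of 2.03, and by 0.98 (0.96 to 0.99) at 5 against 0 µM. Efemp2 rose by 0.71 (0.68 to 0.74) at 10 against 0 µM, a ratio of 1.64, and by 0.79 (0.77 to 0.82) at 5 against 0 µM. At 10 µM only 2.43% of compared genes had a higher FPKM than Efemp2 and 3.12% a higher one than Fbln5, against 4.75% and 8.40% at 0 µM. Fbln5 made up 39.2% of the summed FPKM of Fbln5 and Efemp2 at 0 µM, 42.3% at 5 µM and 44.3% at 10 µM. Efemp1, which encodes fibulin-3, averaged 296.8 FPKM at 10 µM and 335.1 FPKM at 0 µM, above both, and its fold of -0.17 was not called. Fbln2, which encodes fibulin-2, averaged 56.9 FPKM at 10 µM and 64.3 FPKM at 0 µM (-0.17, not called), and Fbln1 fell by 0.73.

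**Figure D1:**
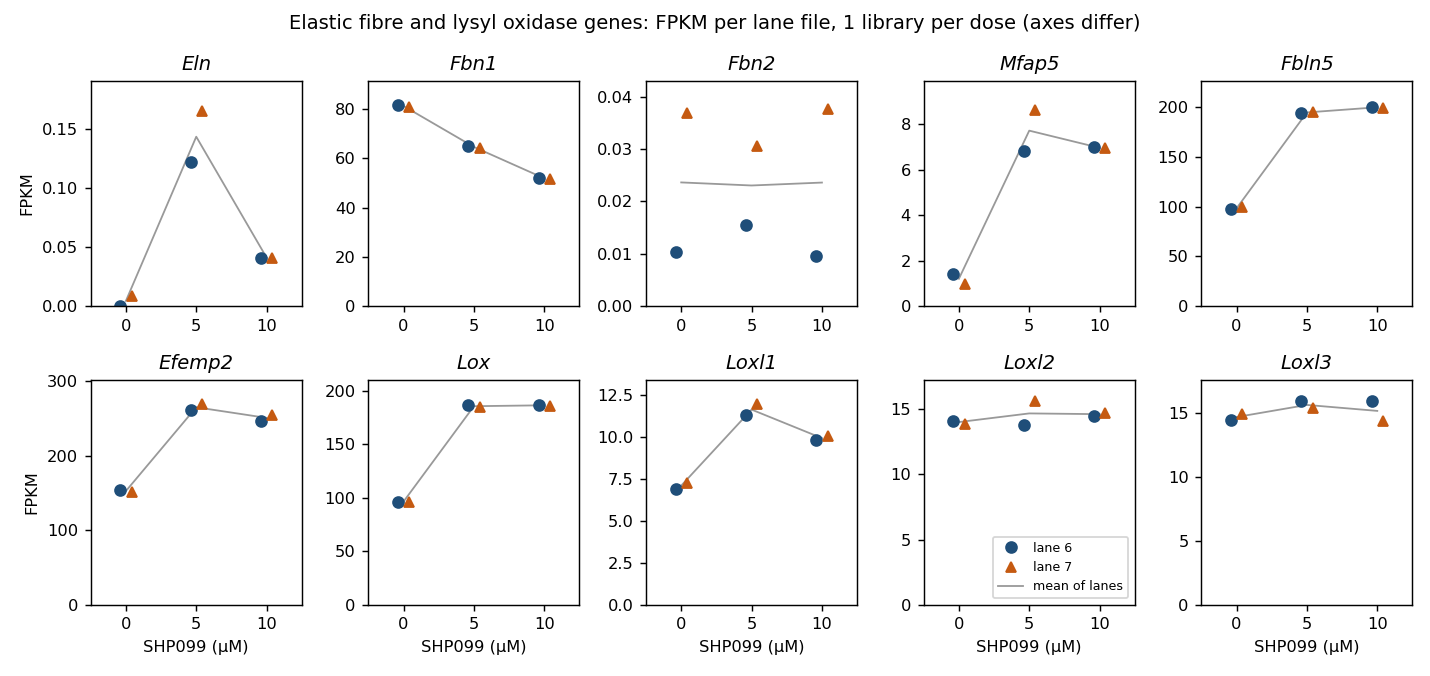
FPKM (y axis, linear from 0, a scale per gene) at 0, 5 and 10 µM SHP099 (x axis) for the 10 genes; circles are lane 6, triangles lane 7 and the grey line joins the means of the lanes of 1 library. Mfap5, Fbln5, Efemp2 and Lox are higher at both treated doses than at 0 µM, Fbn1 is lower at each higher dose, and Eln and Fbn2 stay below 0.2 FPKM.

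The promoters of Fbln5 and Efemp2, which rose, and of Fbn1, which fell, are printed as RefSeq gives them in GRCm38.p6, from 250 bases before to 50 bases after a gene's start, 5′ to 3′ on the gene's strand. RefSeq windows of 3 of the 10 genes were used, with 6 starts in all, and the most upstream start of each gene is printed. The promoters of the other genes, Lox and Mfap5 among them, were not searched. Their absence here does not mean that RefSeq lacks them. Capitals mark GGGCGG or its reverse complement, the GC box bound by factors of the Sp family.
Fbln5 promoter, chr12:101819070-101819369, minus strand: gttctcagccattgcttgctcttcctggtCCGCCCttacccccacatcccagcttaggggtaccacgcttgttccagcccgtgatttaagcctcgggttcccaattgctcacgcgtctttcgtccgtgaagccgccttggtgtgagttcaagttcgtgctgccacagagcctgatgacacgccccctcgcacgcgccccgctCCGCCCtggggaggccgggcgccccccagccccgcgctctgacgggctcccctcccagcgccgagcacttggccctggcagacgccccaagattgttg
Efemp2 promoter, chr19:5473696-5473995, plus strand: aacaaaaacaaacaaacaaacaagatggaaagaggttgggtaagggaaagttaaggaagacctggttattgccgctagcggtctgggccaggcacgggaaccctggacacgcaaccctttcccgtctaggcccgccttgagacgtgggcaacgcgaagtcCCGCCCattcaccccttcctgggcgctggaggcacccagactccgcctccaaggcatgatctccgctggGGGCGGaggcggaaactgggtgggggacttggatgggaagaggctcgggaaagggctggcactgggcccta
Fbn1 promoter, chr2:125506389-125506688, minus strand: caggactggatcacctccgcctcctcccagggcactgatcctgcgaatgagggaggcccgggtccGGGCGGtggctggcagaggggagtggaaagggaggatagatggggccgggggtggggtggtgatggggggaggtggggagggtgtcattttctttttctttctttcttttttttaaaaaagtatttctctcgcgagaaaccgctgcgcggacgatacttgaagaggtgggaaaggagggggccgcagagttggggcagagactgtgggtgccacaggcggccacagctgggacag

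The printed Fbln5 window holds GC boxes that begin 221 and 48 bases before the start, the Efemp2 window 90 and 21 bases before it, and the Fbn1 window 185 bases before it. Of 32851 mouse windows of this length, 35.7% hold this motif. The other motifs searched on both strands were TGANTCA, bound by AP-1 (in 7.81% of all windows), CCGGAAG, of ETS factors (8.86%), GGAATG, of TEAD factors (14.7%), TATAAA (13.6%) and the CArG box of SRF, written by its name alone (1.63%). None of these letters occurs in any of the 6 windows of the 3 genes. The GC content of the printed windows was 65.7% for Fbln5, 60.3% for Efemp2 and 60.3% for Fbn1, against a median of 52.7% over all windows. The starts of a gene differed in both features: the other Fbln5 window has 48.7% GC and no GC box, and the other Efemp2 windows have 76.0% and 78.3% GC with 5 and 7 GC boxes.

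Among the crosslinking enzymes, Lox rose and Loxl2 and Loxl3 were close to their untreated level. Lox (ENSMUSG00000024529), the lysyl oxidase that acts on elastin and fibrillar collagens, had 96.5 and 96.5 FPKM at 0 µM, 186.8 and 184.5 FPKM at 5 µM and 186.7 and 186.2 FPKM at 10 µM. Untreated and treated lanes did not overlap, and the 10 µM lanes lay within the range of the 5 µM lanes. Lox rose by 0.94 at 10 against 0 µM (0.94 to 0.95), a ratio of 1.93, and by 0.94 at 5 against 0 µM (0.93 to 0.95). Loxl1 (ENSMUSG00000032334), which is tied to elastin renewal in mice, had 6.91 and 7.27 FPKM at 0 µM, 11.3 and 11.9 FPKM at 5 µM and 9.79 and 10.0 FPKM at 10 µM. Its lanes ordered the doses as 5 µM above 10 µM above 0 µM, without overlap. Loxl1 rose by 0.64 (0.57 to 0.71) at 5 against 0 µM; at 10 against 0 µM its fold was 0.43 (0.38 to 0.48) and was not called. The call at 5 µM was lost with a pseudocount of 5 FPKM (0.46), and with the common sum the gene was also called at 10 µM (0.63).

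Loxl2 (ENSMUSG00000034205), an enzyme known for crosslinking collagen in basement membranes and tumours, had 14.1 and 13.9 FPKM at 0 µM, 13.7 and 15.6 FPKM at 5 µM and 14.5 and 14.7 FPKM at 10 µM. Loxl3 (ENSMUSG00000000693), a further member of the family, had 14.4 and 14.9 FPKM at 0 µM, 15.9 and 15.4 FPKM at 5 µM and 15.9 and 14.4 FPKM at 10 µM. For both, the ranges of the lanes at 5 and 10 µM overlapped. At 10 against 0 µM the fold was 0.06 (0.04 to 0.08) for Loxl2 and 0.04 (-0.05 to 0.13) for Loxl3, and neither was called in any comparison.

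The mix of lysyl oxidase transcripts differed mainly between the untreated library and the treated ones. Together Lox, Loxl1, Loxl2 and Loxl3 reached 132.3 FPKM without SHP099, 227.5 FPKM at 5 µM and 226.2 FPKM at 10 µM. Lox held 73.0% of that sum at 0 µM, 81.6% at 5 µM and 82.5% at 10 µM. Loxl3 held 11.1%, 6.87% and 6.71% at 0, 5 and 10 µM, Loxl2 held 10.6%, 6.44% and 6.46%, and Loxl1 held 5.36%, 5.10% and 4.38%. As the FPKM of Loxl2 and Loxl3 stayed close to the untreated level, their lower shares follow by arithmetic from the higher Lox. Loxl4, the remaining lysyl oxidase gene, averaged 16.2 FPKM at 0 µM, 13.8 FPKM at 5 µM and 13.2 FPKM at 10 µM, and at 0 µM was above Loxl1, Loxl2 and Loxl3. With Loxl4 in the sum, Lox held 65.0% at 0 µM, 76.9% at 5 µM and 77.9% at 10 µM.

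**Figure D2:**
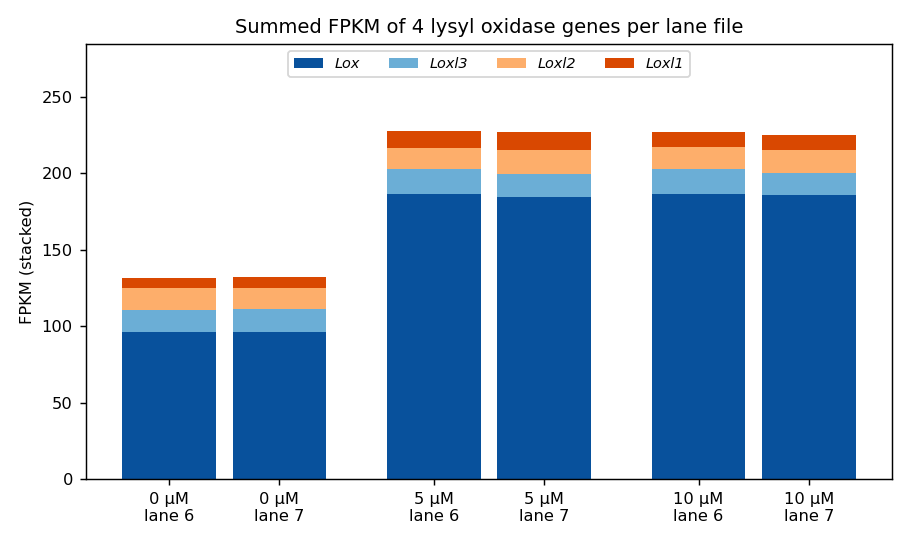
Stacked FPKM (y axis, from 0) of Lox, Loxl3, Loxl2 and Loxl1 in each lane file (x axis) at 0, 5 and 10 µM SHP099. The sums are 132.3 FPKM at 0 µM, 227.5 at 5 µM and 226.2 at 10 µM on average, and the Lox segment accounts for most of the difference.

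Over the 8 compared genes, 4 rose, 1 fell and 3 were not called at 10 against 0 µM. Of all 12567 compared genes, 15.7% were called higher and 19.1% lower in that comparison. The median log2 fold of the 8 genes was 0.57, and that of all compared genes was -0.03. At 5 against 0 µM, 5 rose, none fell and 3 were not called, where 14.1% of all compared genes were called higher and 16.8% lower; the medians were 0.72 and -0.03. At 10 against 5 µM none of the 8 was called, where 0.414% of all compared genes were called higher and 1.35% lower. Both comparisons with 0 µM share the 0 µM library, so their calls are not independent. With 8 genes these counts describe the group and were not tested. In bulk RNA a different number of cells that express a gene cannot be told apart from a different amount of its RNA per cell.

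With the common sum, the median fold of all compared genes moved to 0.16 at 10 against 0 µM and to 0.13 at 5 against 0 µM. The FPKM of a file, Snora62 included, summed to 643175 and 643707 in the untreated lanes. The sums were 953134 and 567051 in the 5 µM lanes and 553504 and 552800 in the 10 µM lanes. A common sum therefore also scales the 10 µM files up against the untreated files. The calls over all genes were then 2979 higher and 1600 lower at 10 µM, in place of 1978 and 2396, and 2597 higher and 1410 lower at 5 µM, in place of 1771 and 2107.

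**Figure D3:**
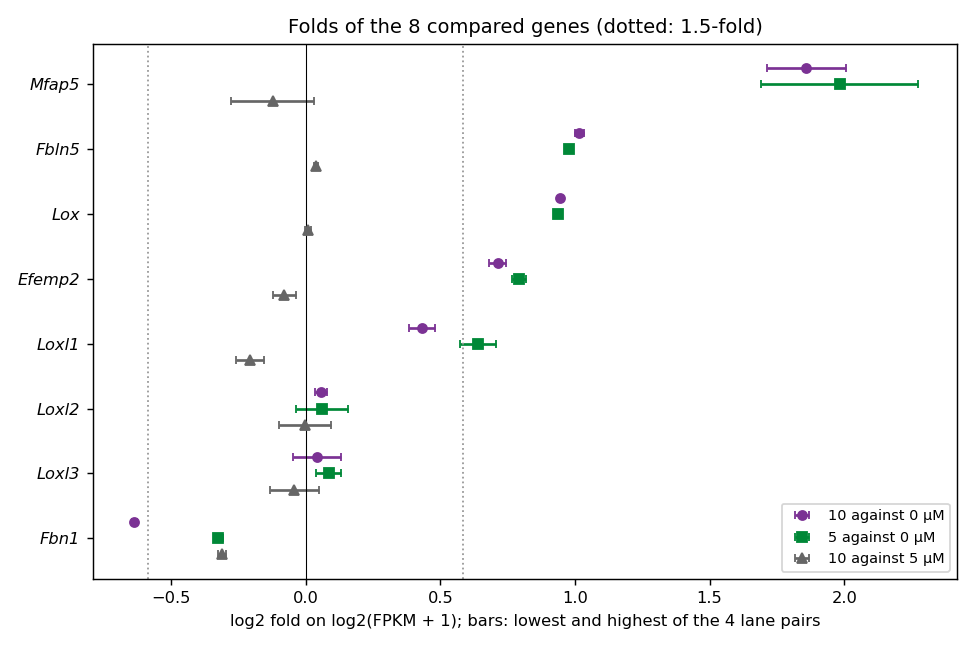
Log2 folds (x axis, on log2(FPKM + 1)) of the 8 compared genes (y axis) for 10 against 0 µM, 5 against 0 µM and 10 against 5 µM; bars run from the lowest to the highest of the 4 lane pairs and dotted lines mark 1.5-fold. Mfap5 lies at 1.86 and 1.98 against 0 µM, Fbn1 is the lowest at -0.64, and for 10 against 5 µM each fold lies inside the dotted lines.

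In these single libraries the genes differed in where along the dose range their change lay. None of the 8 genes was called at 10 against 5 µM, and variation between cultures was not measured. Of the log2 fold at 10 against 0 µM, 99.3% was present at 5 µM for Lox, 96.3% for Fbln5, 107% for Mfap5 and 111% for Efemp2, whereas for Fbn1 it was 51.1%. The value for Fbn1 depends on the scaling. With the common sum its folds were -0.15 at 5 µM and -0.42 at 10 µM, neither of them called. With the trimmed mean they were -0.29 and -0.60, and with the median fold set to 0 they were -0.30 and -0.61. In both of these settings the fold at 10 µM was called lower. For Loxl1, called at 5 µM alone, the fold at 5 µM was 148% of that at 10 µM. By level, Efemp2 was highest at every dose, followed by Fbln5, Lox, Fbn1, Loxl3, Loxl2, Loxl1 and Mfap5. Loxl2 and Loxl3 overlapped in their lanes at 5 and 10 µM, and Fbln5 and Lox were within 3 FPKM of each other at 0 µM. The order of the 8 genes was the same at 0, 5 and 10 µM.

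Since Fbn1 was lower and Fbln5, Efemp2 and Lox were higher, their proportions differed between doses by construction, and the ratios are given for their size. Untreated lanes had 1.19 and 1.23 FPKM of Fbln5 per FPKM of Fbn1, the 5 µM lanes 2.99 and 3.04, and the 10 µM lanes 3.86 and 3.85. For Lox per Fbn1 the untreated lanes had 1.18 and 1.19, the 5 µM lanes 2.87 and 2.88, and the 10 µM lanes 3.59 and 3.60. For Efemp2 to Fbn1 it was 1.88 and 1.88, then 4.02 and 4.19, then 4.75 and 4.93 at 0, 5 and 10 µM. Such ratios within a file do not depend on the scaling between files. Lox and Fbln5 stayed in nearly constant proportion, Lox over Fbln5 being 0.991 and 0.972 in untreated lanes, 0.960 and 0.947 in the 5 µM lanes and 0.931 and 0.935 in the 10 µM lanes.

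**Figure D4:**
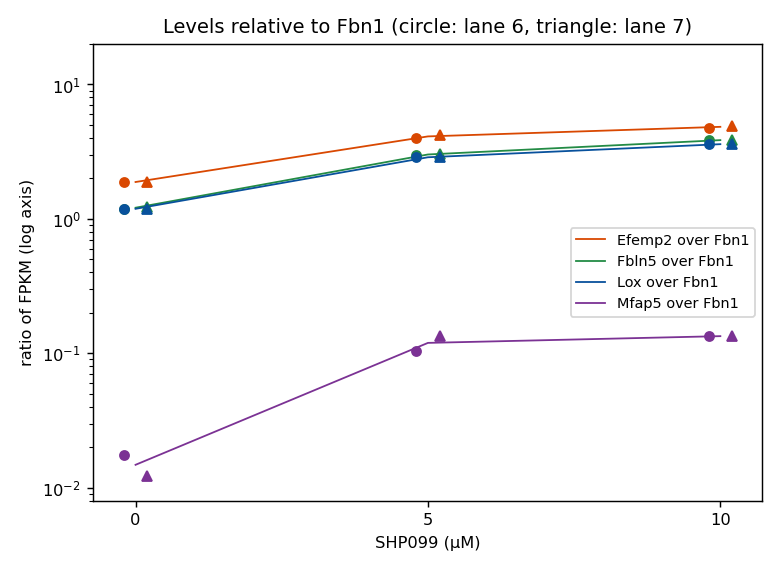
Ratio of the FPKM of Efemp2, Fbln5, Lox and Mfap5 to that of Fbn1 in the same file (y axis, log scale) at 0, 5 and 10 µM SHP099 (x axis); circles are lane 6, triangles lane 7 and lines join means. The ratio of Fbln5 to Fbn1 is 1.19 and 1.23 at 0 µM and 3.86 and 3.85 at 10 µM.

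Genes that work with these proteins were described from 5 lists, to be read against the 15.7% and 19.1% of all compared genes called higher and lower at 10 against 0 µM. For lysyl oxidase activation, copper supply and collagen substrates, 12 of 16 genes were compared; 7 rose and none fell at 10 against 0 µM, with a median fold of 0.66. Col5a2, a chain of the fibril-starting collagen V, was at 331.6 FPKM at 10 µM and 146.1 FPKM at 0 µM (1.18), and Col5a1 rose by 1.07. Fn1, the fibronectin gene, was at 970.4 FPKM at 10 µM and 484.6 FPKM at 0 µM (1.00), and Col1a2, a collagen I chain, rose by 0.97. Pcolce, which encodes an enhancer of procollagen processing, and Atp7a, which loads copper into secreted enzymes, also rose, by 0.72 and 0.60. Bmp1, the protease that activates the Lox precursor, had a fold of 0.48 and Loxl4 one of -0.28, and neither was called. The collagen gene Col3a1 did not rise, at 271.6 FPKM at 10 µM and 321.1 FPKM at 0 µM (-0.24, not called). At 5 against 0 µM, 6 of the 12 rose and none fell.

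Other genes of microfibrils and elastic fibres moved in both directions. Of 19, 14 were compared; 2 rose and 4 fell at 10 against 0 µM, with a median fold of 0.03. Emilin2, which encodes an elastic fibre interface protein, was at 25.5 FPKM at 10 µM and 49.1 FPKM at 0 µM (-0.92), and Ltbp1, which encodes a latent TGF-beta binding protein held on fibrillin, fell by 0.92. Vcan, which encodes versican, and Fbln1, which encodes fibulin-1, fell by 0.73 each. Mfap2, which encodes the other microfibril-associated glycoprotein, MAGP-1, was at 22.0 FPKM at 0 µM, 60.2 FPKM at 5 µM and 39.7 FPKM at 10 µM. It rose by 1.41 at 5 µM and by 0.82 at 10 µM, and fell by 0.59 at 10 against 5 µM, a call that was lost with the common sum and with the median fold set to 0. Mfap4 rose by 0.88 at 10 µM, with 2.61 and 1.91 FPKM in the lanes at 10 µM and 0.95 and 0.58 FPKM at 0 µM, and was compared through its treated levels alone. With the common sum, 5 of the 14 were called higher and 2 lower at 10 µM, Vcan and Fbln1 being no longer called. Of all compared genes, 23.7% were then called higher and 12.7% lower.

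Of 12 proteases listed as elastin-degrading, 6 were compared; 5 rose and 1 fell at 10 against 0 µM, with a median fold of 0.94. Breakdown of elastin was not measured. Ctsk, Ctss, Prtn3 and Mmp7 were among the listed genes that were not compared. Mmp14, the membrane-bound metalloprotease that activates Mmp2, was at 623.3 FPKM at 10 µM and 142.9 FPKM at 0 µM (2.12). Mmp2, gelatinase A, rose by 1.05 and the lysosomal cathepsins Ctsb and Ctsl by 1.58 and 0.84. Mmp12, the macrophage elastase, did not reach 0.1 FPKM in any dose mean, and Elane, the neutrophil elastase, was listed at 0 in the 6 files. Cela1, a pancreatic-type elastase, fell by 0.83. Mmp9, which rose by 0.72, was compared through its treated levels alone.

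Of 10 elastin and fibulin receptors, 4 rose and 1 fell at 10 against 0 µM, with a median fold of 0.46. Neu1 (2.24) and Ctsa (1.53), whose products form the elastin receptor complex with an alternative product of Glb1, rose, and Glb1 itself had a fold of 0.19. Itgb3, an integrin subunit that partners integrin alpha V, rose by 0.85, as did Itga9, which was compared through its treated levels alone, and Lgals3, galectin-3, was at 114.0 FPKM at 10 µM and 222.0 FPKM at 0 µM (-0.96). The TGF-beta list of 10 ligands, receptors and targets had 3 genes that rose, 2 that fell and a median fold of -0.21. Tgfb2 (1.92), Tgfbr2 (1.32) and Tgfbi (1.08) rose, and Skil (-1.35), which TGF-beta is known to induce, fell.

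**Figure D5:**
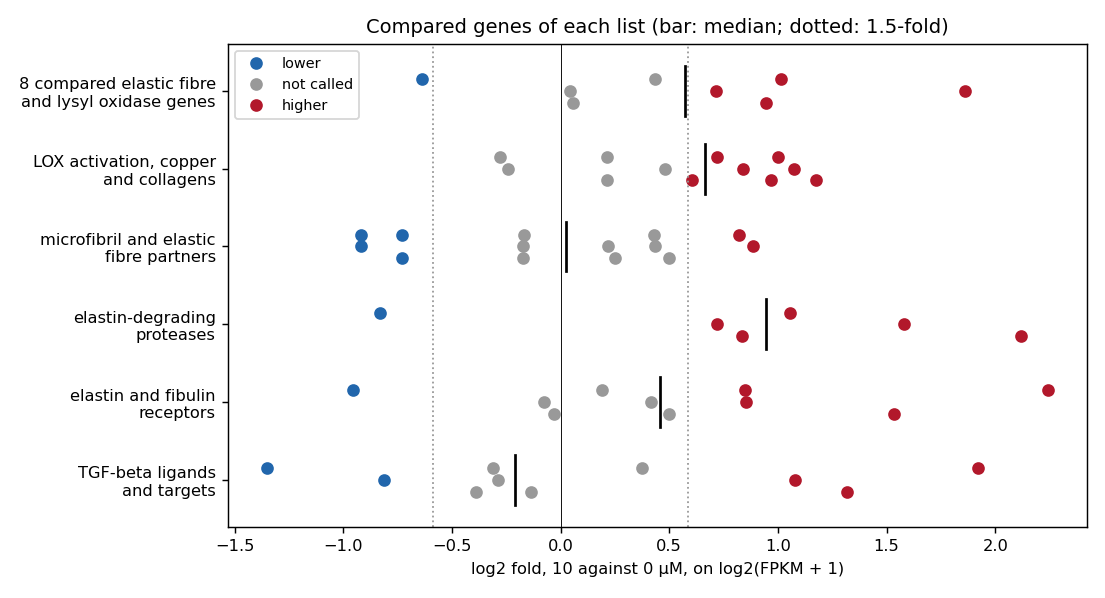
Log2 fold at 10 against 0 µM (x axis) of each compared gene in the 8 genes and in the 5 lists (y axis); red points are called higher, blue lower and grey not called, black bars are medians and dotted lines mark 1.5-fold. The medians are 0.57 for the 8 genes, 0.66 for the lysyl oxidase partners, 0.03 for the microfibril partners, 0.94 for proteases, 0.46 for receptors and -0.21 for TGF-beta genes.

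Markers of cell types that make elastic fibres were checked beside these results. Of 8 markers of smooth muscle and pericytes, 3 were compared and these rose at 10 against 0 µM: Acta2 (253.4 FPKM at 10 µM and 63.1 FPKM at 0 µM, 1.99), Tagln (2.04) and Pdgfrb (0.66). The list summed to 106.3 and 108.3 FPKM at 0 µM, 395.8 and 392.9 FPKM at 5 µM and 336.0 and 335.9 FPKM at 10 µM. Most of this sum was Acta2, at 63.1, 304.8 and 253.4 FPKM at 0, 5 and 10 µM. Myh11, the smooth muscle myosin, stayed at or below 0.0859 FPKM in each file, and Rgs5, of pericytes, at or below 0.148 FPKM. Of 8 fibroblast and meningeal markers, 6 were compared; Dcn (1.04), Col1a1 (0.84) and Pdgfrb rose and Twist2 (-0.99) fell. Col3a1 (-0.24) and Foxc1 (0.06) were not called, and Pdgfrb is in both lists. The fibroblast and meningeal list summed to 1082 and 1095 FPKM at 0 µM, 1863 and 1861 FPKM at 5 µM and 1578 and 1608 FPKM at 10 µM. Most of this sum was Col1a1, at 654.9, 1349 and 1174 FPKM at 0, 5 and 10 µM. The part of such cells, or of such a state, in the results on Fbln5, Lox, Efemp2 and Mfap5 was not tested.

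The labelled cell type was met only in part by its markers. Of 8 astrocyte markers, Gja1 and Slc1a3 were compared and neither was called; Gfap was at most 0.0527 FPKM and Aqp4 was listed at 0 in the 6 files. Of endothelial, neuronal and oligodendrocyte markers 1 of 6, 1 of 5 and none of 6 were compared, and none was called. Of 7 microglial markers, Tmem119 alone was compared and rose by 0.98, while Csf1r, Cx3cr1, P2ry12 and Itgam stayed below 0.1 FPKM.

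Pairs of folds at 5 and at 10 against 0 µM were compared with those of other genes, leaving out unnamed gene models. Nearest to Mfap5 were Abca9, an ABC transporter gene (distance 0.08 on the log2 scale), Osr2, a zinc finger transcription factor gene (0.11), and Ebf4, of the early B-cell factor family (0.12). Nearest to Fbn1 were the small nucleolar RNA host gene Snhg12 (0.01), Afmid, of tryptophan breakdown (0.01), and Eif2b2, a subunit of a translation initiation factor (0.01). These likenesses rest on 3 libraries, with the 0 µM library in both folds, and are a description.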

How the data were processed

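The deposited files hold FPKM for 53460 gene identifiers, 1 file per lane, computed by the authors, per the file headers. Bowtie 0.12.2 and the mouse build mm8 are named in the submitters' processing notes. Of the 53460 identifiers, 53270 are in GENCODE M21, a later annotation than mm8, so the build behind the gene models is uncertain, and fragment numbers and depths, which rest on M21 lengths, are approximate. How the FPKM were computed and scaled between files is not given in the sources used here. FPKM were used as deposited, entries of a symbol were summed, and lanes were treated as repeat runs of 1 library. The members, lists and calling rule were chosen with earlier results of these data known; members of each list were named by the 4 largest folds at 10 against 0 µM, and others after their values were seen. For Mfap5 and Fbn1, the called members with the largest rise and fall, the 3 nearest genes are those with the smallest Euclidean distance between pairs of log2 folds at 5 and 10 against 0 µM. Unnamed gene models were left out of this search. The 5 lists and 7 marker lists were compared in the same way. The values of 1 listed gene are not reported here.

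Depth was recovered from genes with 1 annotated transcript (GENCODE M21, as lengths only) of 1500 to 6000 bases, less 240, by the number of fragments that made values under 10 fragments whole; 97.5% to 98.3% came out within 0.1, where chance gives 20%. Intervals and floors cover counting error only. No test was run, since each dose has 1 library. Python 3.11.15, numpy 2.4.6, pandas 2.3.3 and matplotlib 3.10.9 were used.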

Additional observations from a re-analysis of the deposited data

How the results depend on the processing

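The counts and folds of the 8 compared genes were recomputed under 17 alternatives: pseudocounts of 0.1 and 5 FPKM, a filter at 5 FPKM or none at all, scaling by a trimmed mean, a median fold of 0, a common sum without Snora62, a 2-fold rule, the highest entry of a symbol, each lane file left out and each lane alone. No called fold changed its sign. Folds that were not called did in places, such as Mfap5 at 10 against 5 µM (-0.12, and 0.03 with lane 6 alone). With the common sum the count of lower genes at 10 against 0 µM was 0, as Fbn1 was no longer called. Of all compared genes, 12.7% were called lower in that setting. By the 2-fold rule 2 genes were higher and 0 lower at 10 against 0 µM, and 1 was higher at 5 against 0 µM, by the rule's own construction. The share of all compared genes called by the 2-fold rule was not computed, so these counts have no background beside them. Leaving out a lane file gave 4 higher and 1 lower at 10 against 0 µM, 5 higher and 0 lower at 5 against 0 µM, and 0 in each direction at 10 against 5 µM, each time. Of 408 recomputed folds, 10 changed their call, 7 of them under the 2-fold rule. Part of the 408 could not change. With no filter, the 5 FPKM filter or the highest entry of a symbol, the 8 genes kept their main folds by construction. A left-out lane file likewise left the comparison between the other doses as it was. No paired analysis was possible because each dose has 1 library and no test was run. Depth limits Eln and Fbn2, at most 23 and 19 fragments per lane, for which no fold is given.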
